A study of Mus musculus with 4 samples.

Results

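Complement genes of mouse microglia were examined in bulk RNA-seq libraries: the 3 chains of C1q (C1qa, C1qb, C1qc), the central components C3 and C4b, the anaphylatoxin receptors C3ar1 and C5ar1, the stabilising factor Cfp (properdin), and Vsir. They were taken by gene symbol from the deposited count tables, and all 9 were found among the 49993 genes listed. Vsir encodes VISTA, an inhibitory immunoglobulin-family receptor of myeloid and T cells; it is no component of the cascade. The CD11b+ cells were isolated magnetically from mouse brain at an age of 10 months. Both groups carried the APP/PS1 transgenes, which lead to amyloid deposits, so that the controls are diseased brains too. The AD group was APP/PS1+ asrij+/+ (2 libraries) and the AD/KO group was APP/PS1+ asrij-/-, with asrij deleted constitutively, in every cell type (2 libraries). The labels do not say whether a library came from 1 mouse or from pooled mice, or that libraries came from separate mice, so that p-values measure the spread between these libraries, which may be technical.

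Complement is a cascade of plasma and tissue proteins. C1q binds a surface, the proteases C1r and C1s attached to it cleave C4 and C2, and the enzyme formed in this way cleaves C3. C3 fragments tag the surface for uptake through integrin receptors, and the released C3a and C5a peptides act on C3ar1 and C5ar1. In the brain, microglia are known as the main source of C1q, and C1q and C3 are known for their part in the removal of synapses in amyloid models.

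The libraries held 13102622 to 19810076 counts, and 10 counts corresponded to 0.521 to 0.726 CPM (counts scaled to library size, with TMM factors). Ociad1, the mouse gene for Asrij, stood at 50.2 and 63.4 CPM in AD and at 38.9 and 32.1 CPM in AD/KO, so that its transcript was still counted in the libraries labelled AD/KO, and group names stand for the labels. The list of 15 homeostatic microglia markers averaged 9.98 and 9.48 log2 CPM in AD replicates 1 and 2, and 9.93 and 8.23 in AD/KO replicates 1 and 2, with no marker at 0. AD/KO replicate 2 stood apart with the least microglial RNA and the most of neurons (7.43 against 4.34 to 6.13 elsewhere) and astrocytes (8.79 against 6.21 to 7.49). AD replicate 2 stood apart with the most neutrophil RNA, the 11 markers summing to 4891 CPM against 350 to 561 CPM in the other libraries, and with 1391 reads of Xist against 3 to 15. Its Y-linked transcripts were present as well (Ddx3y at 37.4 CPM against 30.3 to 57.3 elsewhere). In bulk samples, fewer cells of a type and less RNA per cell cannot be told apart.

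**Figure D1:**
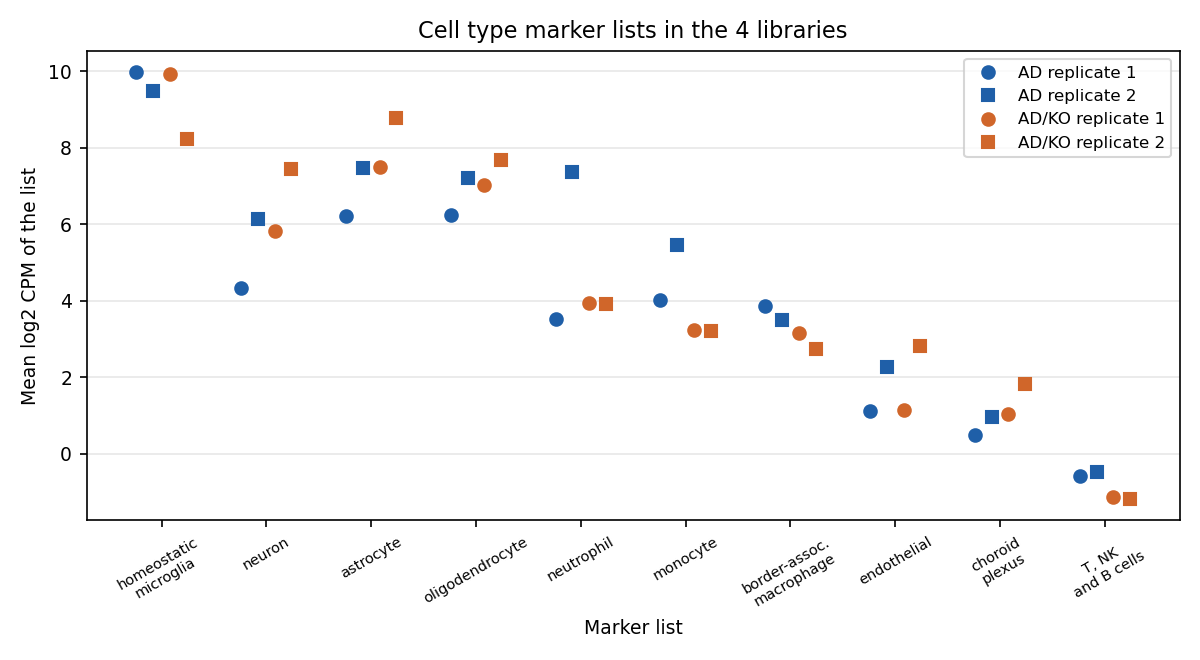
Mean log2 CPM (vertical axis) of 10 marker lists (horizontal axis) in each library; blue marks AD, orange AD/KO, circles replicate 1 and squares replicate 2. AD replicate 2 has the highest neutrophil level (7.36 against 3.52 to 3.94), and AD/KO replicate 2 the lowest homeostatic microglia level (8.23) with the highest neuron level (7.43).

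Per kilobase of exon, the level of C1qa was the highest of the 9 genes, with a mean of 910 CPM per kilobase over the 4 libraries. C1qb followed at 713, C1qc at 403 and Vsir at 251 CPM per kilobase, and these 4 held this order in all 4 libraries. C3ar1 came next at 32.7 CPM per kilobase, below Vsir in all 4 libraries and above C4b (18.2) in 3 of them. C5ar1 at 15.6, C3 at 11.5 and Cfp at 9.84 CPM per kilobase were not ordered beyond the spread of the libraries: C5ar1 lay above C3 in 2 of 4 libraries and C3 above Cfp in 2 of 4.

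The 3 C1q genes are neighbours on chromosome 4, all on the minus strand: C1qb (gene ID 12260, 136880126 to 136886200), C1qc (gene ID 12262, 136889801 to 136892936) and C1qa (gene ID 12259, 136895916 to 136898844), on GRCm38.p6. Each encodes 1 of the 3 chains that trimerise through collagen-like tails. C1qb and C1qc had nearly the same profile over the libraries, and the 250 bases before their start sites are given for that reason, with those of C3 and C3ar1, for which both AD/KO values were under both AD values. The promoter table held entries for 7 of the 9 members, without C1qa and C4b. Capitals mark a match, on either strand, to 1 of 5 motif cores.
C1qb (chr4:136886201-136886450, minus strand): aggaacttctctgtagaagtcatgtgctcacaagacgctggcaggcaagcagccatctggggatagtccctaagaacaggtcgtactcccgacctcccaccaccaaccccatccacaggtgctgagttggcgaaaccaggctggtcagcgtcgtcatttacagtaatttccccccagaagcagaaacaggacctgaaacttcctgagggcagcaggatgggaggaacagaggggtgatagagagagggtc
C1qc (chr4:136892915-136893164, minus strand): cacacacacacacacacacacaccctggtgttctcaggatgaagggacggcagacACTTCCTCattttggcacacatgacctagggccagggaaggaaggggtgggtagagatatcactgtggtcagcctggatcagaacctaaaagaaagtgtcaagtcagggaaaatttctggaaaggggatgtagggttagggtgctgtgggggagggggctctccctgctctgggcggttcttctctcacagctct
C3 (chr17:57228137-57228386, minus strand): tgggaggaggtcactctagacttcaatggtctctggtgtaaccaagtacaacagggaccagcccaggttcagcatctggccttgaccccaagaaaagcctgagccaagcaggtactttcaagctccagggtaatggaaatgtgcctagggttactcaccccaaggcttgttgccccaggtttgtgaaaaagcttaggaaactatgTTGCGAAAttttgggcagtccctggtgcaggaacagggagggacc
C3ar1 (chr6:122856158-122856407, minus strand): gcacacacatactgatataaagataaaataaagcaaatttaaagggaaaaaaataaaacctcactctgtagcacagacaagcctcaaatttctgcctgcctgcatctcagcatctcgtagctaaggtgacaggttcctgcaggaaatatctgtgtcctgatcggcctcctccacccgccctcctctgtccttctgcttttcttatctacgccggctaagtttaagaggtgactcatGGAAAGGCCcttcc
The cores searched were GAGGAAGT for PU.1, GAAANNGAA for the interferon response element, TTCNNNGAA for STAT factors, GGNNTTTCC for NF-kB and TTGCNNAA for C/EBP; no matches overlapped. C1qc held 1 PU.1 core beginning 195 bases before its start, a core found in 2.44% of the 32851 windows of this length. C3 held 1 C/EBP core beginning 45 bases before its start (9.56% of windows), and C3ar1 held 1 NF-kB core beginning 14 bases before its start (4.93% of windows). C5ar1 held 1 interferon response core beginning 66 bases before the start in the promoter table (7.13% of windows); that start and the core lie inside the span of the gene given here, whose end is farther upstream. The table's start of C1qc also lies inside its span, but the core does not. C1qb, Cfp and Vsir held none of the 5 in their windows.

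Transcripts of C1q were abundant in every library, and their group means differed by less than the spread between the AD/KO libraries. C1qa, the A chain, stood at 1096 and 951 CPM in AD and at 1306 and 432 CPM in AD/KO. C1qb, the B chain, stood at 840 and 698 CPM in AD and at 1185 and 378 CPM in AD/KO. C1qc, the C chain, stood at 838 and 692 CPM in AD and at 1200 and 382 CPM in AD/KO. For each chain, AD/KO replicate 1 was the highest library and AD/KO replicate 2 the lowest, with both AD libraries between them. The group means of C1qa were 1023 ± 102 and 869 ± 618 CPM (SD, n = 2 each), those of C1qb 769 ± 100 and 782 ± 570 CPM, and those of C1qc 765 ± 103 and 791 ± 579 CPM. The log2 fold changes of AD/KO over AD were −0.24 for C1qa (95% interval −2.00 to 1.53), 0.02 for C1qb (−1.73 to 1.77) and 0.05 for C1qc (−1.71 to 1.80). None passed edgeR's quasi-likelihood test (Benjamini-Hochberg adjusted p of 0.896, 0.990 and 0.980), and the intervals leave differences of over 1 on the log2 scale in either direction. Without AD/KO replicate 2 the values were 0.36, 0.63 and 0.66, and without AD/KO replicate 1 they were −1.19, −0.97 and −0.95.

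**Figure D2:**
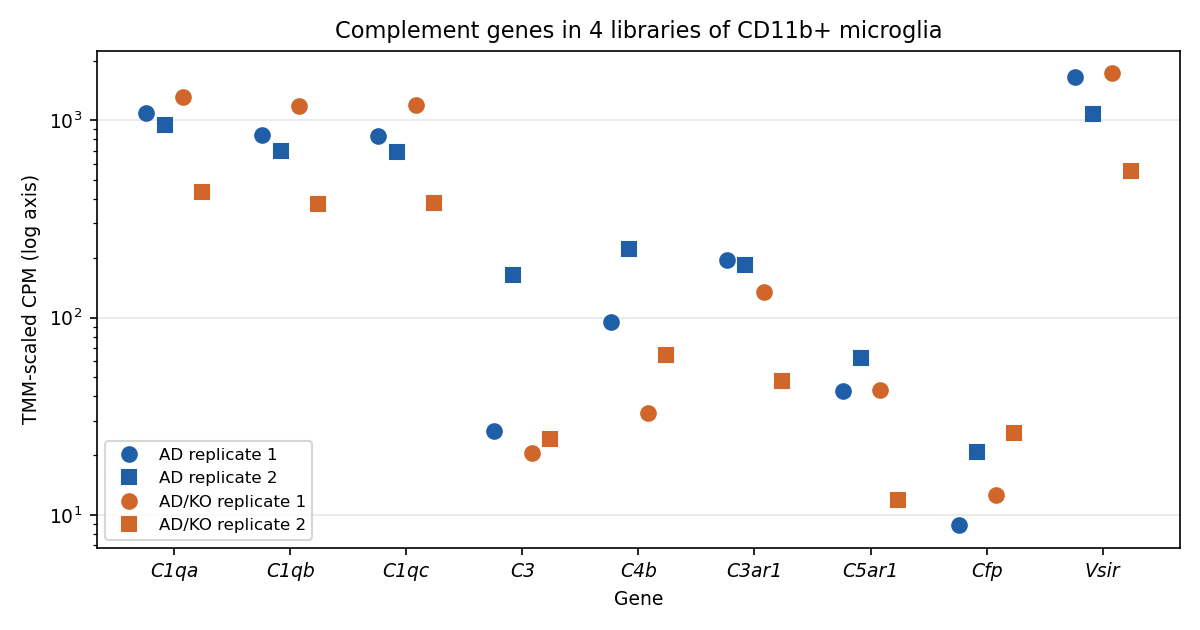
TMM-scaled CPM on a log axis (vertical) of the 9 genes (horizontal) in each library, 1 point per library; blue marks AD, orange AD/KO, circles replicate 1 and squares replicate 2. The C1q genes and Vsir are highest in AD/KO replicate 1 and lowest in AD/KO replicate 2, C3 is high in AD replicate 2 alone (164 CPM), and C3ar1 and C4b have both AD/KO points below both AD points.

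The spread of C1q between libraries ran with the level of the microglia list. Set against the mean log2 CPM of the 15 homeostatic markers of the same library, C1qa differed by 0.12 and 0.41 in AD and by 0.42 and 0.53 in AD/KO on the log2 scale. C1qb differed by −0.26 and −0.03 in AD and by 0.28 and 0.34 in AD/KO, and C1qc by −0.27 and −0.05 in AD and by 0.30 and 0.35 in AD/KO. On this scale both AD/KO libraries lay above both AD libraries for C1qb and C1qc, while for C1qa the nearest libraries of the groups were all but level. With the libraries scaled to the summed counts of that list, the groups overlapped for C1qa. C1qb and C1qc were higher in both AD/KO libraries, as were 1438 of all 21439 genes tested. The fitted log2 fold changes were 0.12 for C1qa, 0.37 for C1qb and 0.39 for C1qc, while the median over all genes moved from −0.05 to 0.70, above all 3 chains.

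The balance between the chains differed between the groups and does not depend on how libraries are scaled. C1qa took 39.5% and 40.6% of the counts of the 3 C1q genes in AD replicates 1 and 2 (exact 95% intervals 39.0% to 40.0% and 40.1% to 41.1%). It took 35.4% and 36.2% in AD/KO replicates 1 and 2 (35.0% to 35.7% and 35.6% to 36.9%). The groups did not overlap, and the mean share of C1qa was 40.1 ± 0.793% in AD and 35.8 ± 0.604% in AD/KO (SD, n = 2 each). C1qb and C1qc kept nearly equal counts, with C1qc at 0.997 and 0.992 times C1qb in AD and at 1.01 times in both AD/KO libraries. The intervals cover counting error only, and an exact two-sided permutation test of 2 against 2 libraries cannot give a p below 0.333.

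**Figure D3:**
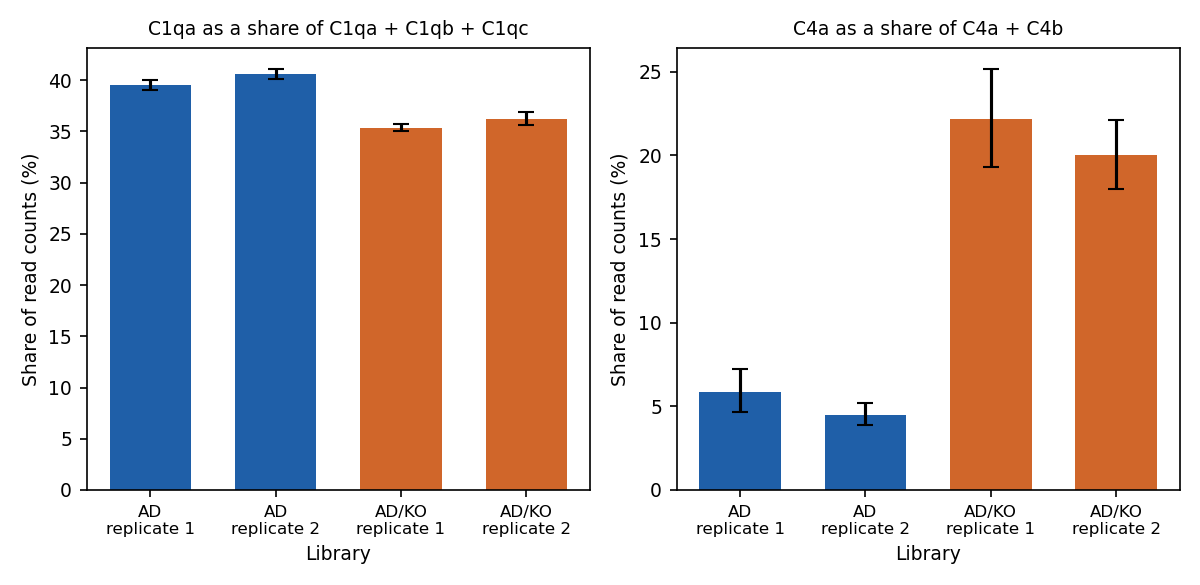
Share of read counts in percent (vertical axis from 0) taken by C1qa among the 3 C1q genes (left) and by C4a among C4a and C4b (right) in each library (horizontal axis), blue for AD and orange for AD/KO; bars on the columns are exact 95% binomial intervals. C1qa takes 39.5% and 40.6% in AD against 35.4% and 36.2% in AD/KO, and C4a takes 5.86% and 4.50% against 22.2% and 20.0%.

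C4b (gene ID 12268, chromosome 17, 34728139 to 34743902, GRCm38.p6) encodes C4, which C1s cleaves and which couples C1q to the cleavage of C3. It stood at 94.5 and 223 CPM in AD replicates 1 and 2 and at 32.8 and 64.5 CPM in AD/KO replicates 1 and 2. Both AD/KO values were under both AD values, with replicate 2 above replicate 1 in each group. The group means were 159 ± 90.7 and 48.6 ± 22.4 CPM (SD, n = 2 each), a level in AD/KO at 30.7% of that in AD. The log2 fold change was −1.71 (SE 0.58, 95% interval −3.21 to −0.20), with an unadjusted p of 0.0333 and an adjusted p of 0.680 in the edgeR quasi-likelihood fit, which did not pass the threshold of 0.05. Without AD replicate 2 it was −0.90, and with scaling to the homeostatic list −0.79. The gene is known to be transcribed by astrocytes and oligodendrocytes as well as by myeloid cells. The astrocyte list summed to 1844 and 4330 CPM in AD and to 4494 and 11519 CPM in AD/KO, the opposite order between groups to that of C4b. The oligodendrocyte list also ran the other way in sum, at 1643 and 2635 CPM in AD and at 3921 and 8559 CPM in AD/KO. Of its 8 markers, 4 were higher in both AD/KO libraries, against 20.3% of all genes, while Mog, Mag, Cldn11 and Ermn overlapped between the groups. The monocyte list summed to 125 and 453 CPM in AD and to 63.7 and 87.1 CPM in AD/KO, the same order of libraries as C4b. Its marker Chil3 stood at 294 CPM in AD replicate 2 against 10.6 to 25.7 CPM elsewhere. Of its 6 markers, 4 were lower in both AD/KO libraries, against 21.7% of all genes, and none was at 0. Those 4 (Ccr2, Ly6c2, Plac8 and F13a1) did not rise from AD/KO replicate 1 to replicate 2. Vcan and Chil3, the rest of the list, did rise between these libraries, as did C4b and the sum of the list. The part of any of these cell types in the C4b level was not tested. With a covariate for neuron and astrocyte content (the mean of those lists), the log2 fold change of C4b was −2.66.

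C4a, the neighbouring copy of C4b (gene ID 625018, chromosome 17, 34809092 to 34823460), stood at 5.88 and 10.5 CPM in AD and at 9.33 and 16.1 CPM in AD/KO (log2 fold change 0.63, SE 0.50). Of the counts of both C4 genes, C4a took 5.86% and 4.50% in AD replicates 1 and 2 (exact 95% intervals 4.68% to 7.23% and 3.87% to 5.21%). It took 22.2% and 20.0% in AD/KO replicates 1 and 2 (19.3% to 25.2% and 18.0% to 22.1%). The groups did not overlap, and each difference between groups was larger than that within a group. The intervals cover counting error only. As for C1qa, an exact two-sided permutation test of 2 against 2 libraries cannot give a p below 0.333. The longest transcripts of the genes are 96.0% identical over 5378 bases, and 35.2% of the 50-base words and 16.5% of the 100-base words of C4b also occur in C4a. How reads matching both were counted is not given in the sources used here. The absolute levels of both genes and the share of C4a are therefore uncertain. The annotation behind the tables also listed an alternative contig of chromosome 17 for Bag6, and whether C4 reads were shared with such a contig was not tested.

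C3 (gene ID 12266, chromosome 17, 57203967 to 57228136) encodes the component on which all arms of the cascade converge; a microRNA gene, Mir6978, lies within it. It stood at 26.5 CPM in AD replicate 1, 164 CPM in AD replicate 2, 20.6 CPM in AD/KO replicate 1 and 24.4 CPM in AD/KO replicate 2. AD replicate 2 was 6.20-fold above AD replicate 1, while the other 3 libraries lay close together. The group means were 95.4 ± 97.4 and 22.5 ± 2.63 CPM (SD, n = 2 each). The log2 fold change was −2.08 (SE 0.87, 95% interval −4.33 to 0.16) with an adjusted p of 0.680 (edgeR quasi-likelihood), and without AD replicate 2 it was −0.17. Without AD replicate 1 it was −2.88 with an adjusted p of 0.0210 in that edgeR fit, which called 0.208% of its genes; over its alternatives the adjusted p ran from there up to 1.0. AD replicate 2 is the library in which the neutrophil markers S100a8 (800 CPM against 51.4 to 64.5 elsewhere), S100a9 (751 against 55.9 to 85.3) and Ngp (1363 against 81.9 to 150) were highest. No neutrophil marker was at 0 in any library, and the part of these cells in the C3 level was not tested.

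The genes with profiles most like C3 were sought among 13760 other genes with a mean of at least 5 CPM, by the root mean square difference of centred log2 CPM over the 4 libraries. The nearest were Ly75 (0.109), S100a11 (0.124) and Abca13 (0.124). Abca13 stood at 84.8 CPM in AD replicate 2 and at 8.39 to 11.3 CPM in the other libraries. For C4b they were Cd44 (0.130), Cd300lb (0.131) and Rab11fip1 (0.177). Cd44, an adhesion receptor, stood at 35.9 and 86.8 CPM in AD and at 12.9 and 20.4 CPM in AD/KO. For the mean of the C1q chains they were Rsl1 (0.0547), Abcg3 (0.0686) and Cebpzos (0.0761), all between 3.20 and 17.5 CPM. Among the members themselves the smallest difference was that between C1qb and C1qc (0.0124), and Vsir lay within 0.149 to 0.189 of the C1q chains, whereas C3 and C4b lay at 1.20 to 1.41 from them.

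C3ar1 (gene ID 12267, chromosome 6, 122847140 to 122856157), the receptor for C3a, stood at 195 and 185 CPM in AD and at 135 and 47.5 CPM in AD/KO. The AD libraries nearly coincided, with both AD/KO values under them. The group means were 190 ± 7.65 and 91.3 ± 61.9 CPM (SD, n = 2 each), with a log2 fold change at −1.06 (SE 0.56, 95% interval −2.50 to 0.38) with an adjusted p of 0.680 (edgeR quasi-likelihood). Against the homeostatic markers of its library C3ar1 differed by −2.36 and −1.95 in AD and by −2.85 and −2.65 in AD/KO on the log2 scale, again without overlap. Under the alternatives the log2 fold change kept its sign, from −1.95 without AD/KO replicate 1 to −0.48 without AD/KO replicate 2.

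C5ar1 (gene ID 12273, chromosome 7, 16246743 to 16259540), the receptor for C5a and abundant in neutrophils, stood at 42.6 and 62.3 CPM in AD and at 43.1 and 11.9 CPM in AD/KO. The groups overlapped, since AD/KO replicate 1 lay just above AD replicate 1. The log2 fold change was −0.93 (SE 0.66, 95% interval −2.63 to 0.77, adjusted p of 0.682 by edgeR quasi-likelihood), and it was −0.27 without AD/KO replicate 2. C5ar2, a second C5a receptor beside it on chromosome 7, stood at 78.9 and 68.8 CPM in AD and at 78.3 and 8.14 CPM in AD/KO, so that AD/KO replicate 2 was low for both receptors.

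Cfp (gene ID 18636, chromosome X, 20925454 to 20931555), which stabilises the alternative pathway's C3-cleaving enzyme, stood at 8.85 and 20.8 CPM in AD and at 12.6 and 26.0 CPM in AD/KO. Replicate 2 was the higher library in each group. The log2 fold change was 0.38 (SE 0.59, 95% interval −1.15 to 1.91, adjusted p of 0.804 by edgeR quasi-likelihood). Its direction turned to −0.22 without AD/KO replicate 2, to −0.12 without AD replicate 1 and to −0.61 with the neuron and astrocyte covariate, and the value was 1.18 without AD replicate 2.

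Vsir (gene ID 74048, chromosome 10, 60346851 to 60430294) stood at 1663 and 1082 CPM in AD and at 1731 and 551 CPM in AD/KO, in the same order of libraries as the homeostatic microglia markers except for its highest library, AD/KO replicate 1. The log2 fold change was −0.27 (SE 0.75, 95% interval −2.20 to 1.66, adjusted p of 0.892 by edgeR quasi-likelihood). It turned to 0.35 without AD/KO replicate 2 and to 0.11 with scaling to the homeostatic list. On that last scale both AD/KO libraries lay above both AD libraries. Vsir overlaps Cdh23 on the opposite strand, which stood at 207 and 104 CPM in AD and at 88.4 and 40.0 CPM in AD/KO. The kit was stranded per the labels' protocols, but whether the counting used strand is not given in the sources used here, so that reads of the pair may be mixed.

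**Figure D4:**
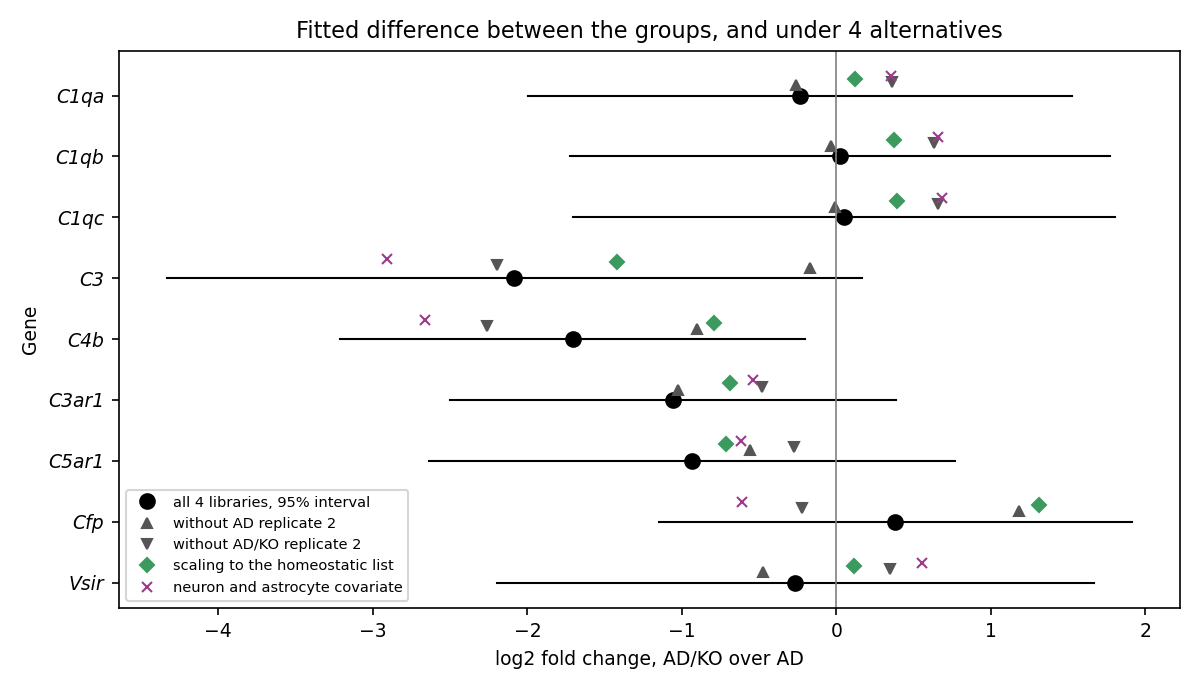
Log2 fold change of AD/KO over AD (horizontal axis) of the 9 genes (vertical axis); black points and lines give the edgeR fit on all 4 libraries with its 95% interval, and other symbols give the value without AD replicate 2, without AD/KO replicate 2, with scaling to the homeostatic list and with the neuron and astrocyte covariate. C3 moves to −0.17 without AD replicate 2, while the C1q genes, Cfp and Vsir lie on both sides of 0.

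Of the 9 genes, 0 passed at an adjusted p of 0.05 in the edgeR quasi-likelihood fit, as did 0% of the 21439 genes tested, and 0 passed in DESeq2, which called 0.462% of its genes. At an unadjusted p under 0.05 there was 1 member, C4b (11.1%), against 5% of all genes. C3, C4b and C3ar1 were lower in both AD/KO libraries, 3 of 9 members against 21.7% of all genes, and 0 members were higher in both, against 20.3%. The other 6 overlapped. With scaling to the homeostatic list the members lower in both were C3ar1 and C5ar1, against 8.55% of all genes. Those higher in both were then C1qb, C1qc and Vsir, against 1438 of the 21439 genes. The median log2 fold change of the members was −0.27, against −0.05 over all genes. All 9 members passed the filter on low counts.

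The rest of the pathway was read from a list of 53 further complement genes. Of these, 31 passed the filter on low counts, 6 were lower in both AD/KO libraries and 6 higher in both (19.4% each, against 21.7% and 20.3% of all genes). In the edgeR fit 0 passed at an adjusted p of 0.05, and 4 had an unadjusted p under 0.05 (Itgax, Masp1, Colec12 and Csmd1; 12.9%, against 5% of all genes). DESeq2 called 2 of the 30 to which it gave an adjusted p, Itgax and Csmd1, against 0.462% of its genes. The 22 that did not pass had at most 16 counts in any library. Mbl1, Mbl2, Colec10, C1rb, C9 and Cpn2 had no read in any library, which allows a level of up to 0.156 to 0.218 CPM per library (3 counts, counting error only).

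Among the proteases, C1ra, C1s1 and C1s2, which make up the enzyme that C1q carries, were at or near the floor: C1ra stood at 0.434 to 1.52 CPM and C1s1 and C1s2 had at most 7 counts in a library. Masp1, a protease of the lectin pathway, stood at 26.1 and 28.3 CPM in AD and at 8.71 and 10.9 CPM in AD/KO. Its groups were well apart, with a log2 fold change of −1.47 (SE 0.32, unadjusted p of 0.00615, adjusted p of 0.680 by edgeR). With scaling to the homeostatic list the value was −0.62 and the groups overlapped. Masp2 (5.66 to 6.95 CPM) and Cfb, the protease of the alternative pathway (5.27 to 7.16 CPM), varied little among the libraries. Of the components of the membrane attack complex, C6, C7, C8a, C8b, C9 and Hc (the mouse gene for C5) had at most 16 counts in a library, and only C8g passed the filter, at 3.09 to 4.33 CPM. Masp2 overlaps Tardbp and C8g overlaps Fbxw5, each on the opposite strand. Whether the counting used strand is not given, so that reads of these pairs may be mixed.

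Genes listed as complement receptors or binding proteins had negative log2 fold changes in 7 of 8 tested. Of the 8, 4 (Itgax, Itgb2, Cr2 and Cd93) were lower in both AD/KO libraries, against 21.7% of all genes. With scaling to the homeostatic list, Cr2 (log2 fold change 0.03) and Cd93 (0.08) no longer were. C5ar2 (−0.79) and Itgam (−0.20) then were, beside Itgax and Itgb2, against 8.55% of all genes. With TMM scaling, some markers of other cells were lower in both AD/KO libraries as well. These were 4 of 6 monocyte markers (Ccr2 at 39.8 and 40.0 CPM in AD and at 10.3 and 6.13 CPM in AD/KO) and 5 of 8 border-associated macrophage markers, against 21.7% of all genes. So were 3 of the 4 tested markers of T, NK and B cells, and 0 of the 10 tested neutrophil markers. Those 3 (Klrd1, Cd79a and Ms4a1) lay near the floor, at 0.261 to 2.69 CPM. Of the other T, NK and B cell markers, Cd3e, Cd3g, Trbc2 and Nkg7 had no read in at least 1 library. The border-associated macrophage list overlapped between the groups in sum (812 and 527 CPM in AD, 808 and 311 CPM in AD/KO). None of its markers was at 0, and F13a1 was shared with the monocyte list. The part of these cells in the receptor levels was not tested. Itgax, the alpha chain of complement receptor CR4, stood at 68.4 and 70.1 CPM in AD and at 12.7 and 4.56 CPM in AD/KO (log2 fold change −3.00, SE 0.56, adjusted p of 0.680 by edgeR). It passed in DESeq2 (adjusted p of 0.00079) and in edgeR with the replicate number as a block (0.00235). It did not pass in edgeR with the neuron and astrocyte covariate (0.183) or with scaling to the homeostatic list (0.857). With 1 library left out, the log2 fold change of Itgax ran from −3.87 without AD/KO replicate 1 to −2.44 without AD/KO replicate 2. Itgam, the alpha chain of CR3 and the CD11b on which the cells were isolated, stood at 1313 and 848 CPM in AD and at 1012 and 374 CPM in AD/KO. Itgb2, the beta chain of both, stood at 406 and 401 CPM in AD and at 325 and 122 CPM in AD/KO. For this pair the AD/KO level of replicate 2 was the lowest, as it was for the homeostatic markers. Cd93 stood at 15.7 and 11.1 CPM in AD and at 4.12 and 9.17 CPM in AD/KO, Cr1l overlapped between the groups (19.5 to 47.9 CPM), and C1qbp, a C1q-binding protein of mitochondria, ranged from 17.5 to 22.0 CPM.

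Regulators and recognition molecules went different ways. Clu (clusterin), an inhibitor of the attack complex made mainly by astrocytes, stood at 93.7 and 243 CPM in AD and at 332 and 831 CPM in AD/KO (log2 fold change 1.79, SE 0.72). The astrocyte list was likewise lowest in AD replicate 1 and highest in AD/KO replicate 2. With the neuron and astrocyte covariate the log2 fold change of Clu was 0.58. The part of astrocytes in the Clu level was not tested. Cd55, a membrane inhibitor of the C3-cleaving enzymes, stood at 3.77 and 8.61 CPM in AD and at 2.66 and 2.93 CPM in AD/KO (log2 fold change −1.15). Cd46 (5.48 to 14.2 CPM) and Vtn (6.75 to 22.8 CPM) overlapped between the groups. Fcnb, a ficolin of the neutrophil lineage, stood at 22.3 CPM in AD replicate 2 and at 0.581 to 2.44 CPM in the others, and Colec12, a scavenger collectin, at 2.98 and 5.22 CPM in AD and at 12.04 and 10.4 CPM in AD/KO.

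Complement-control proteins with CUB or sushi domains, most of which are expressed mainly by neural cells, had positive log2 fold changes in 6 of 7 tested. Of these 7, 4 (Csmd1, Csmd2, Susd4 and Sez6) were higher in both AD/KO libraries, against 20.3% of all genes. Csmd1 stood at 18.2 and 74.7 CPM in AD and at 155 and 370 CPM in AD/KO (log2 fold change 2.50, SE 0.84, unadjusted p of 0.0316, adjusted p of 0.680 by edgeR, and 0.0498 by DESeq2). The neuron list summed to 344 and 1186 CPM in AD and to 866 and 2742 CPM in AD/KO. With the neuron and astrocyte covariate the log2 fold change of Csmd1 was 1.21, that of Csmd2 moved from 1.73 to 0.39, that of Susd4 from 1.77 to 0.49 and that of Sez6 from 1.72 to 0.33. Those of Sez6l and Sez6l2 moved from 1.32 to −0.10 and from 0.67 to −0.35. The list mean behind the covariate was 5.22 and 6.76 log2 CPM in AD and 6.61 and 8.07 in AD/KO. Group and neural content therefore cannot be fully told apart, and the part of neural cells in these levels was not tested. Csmd2 (34.2 to 361 CPM), Susd4 (7.11 to 66.6 CPM), Sez6 (15.7 to 162 CPM), Sez6l (29.2 to 229 CPM) and Sez6l2 (94.4 to 335 CPM) were each lowest in AD replicate 1 and highest in AD/KO replicate 2. Csmd3 was the exception, at 716 and 350 CPM in AD and at 370 and 161 CPM in AD/KO.

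**Figure D5:**
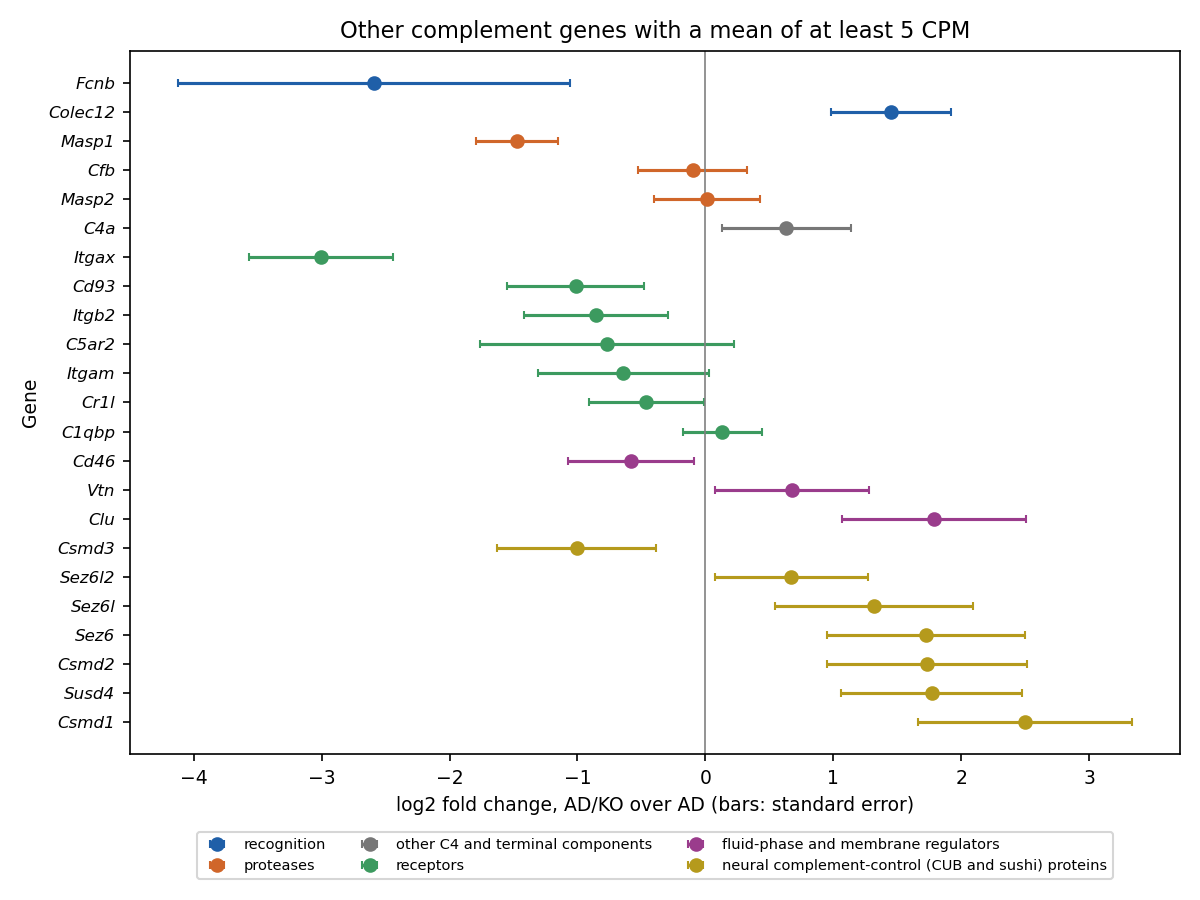
Log2 fold change of AD/KO over AD (horizontal axis, bars are standard errors) for the 23 further complement genes with a mean of at least 5 CPM (vertical axis), coloured by role. Genes listed as receptors or binding proteins lie mostly left of 0, with Itgax at −3.00. Neural complement-control proteins lie mostly right of 0, with Csmd1 at 2.50. In the edgeR fit shown none passed the adjusted threshold.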

How the data were processed

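Bulk RNA-seq was analysed from 2 AD and 2 AD/KO libraries. Each deposited table held 1 library's raw counts of reads by gene symbol, as whole numbers. The submitters' processing notes name HISAT2, SAMtools, featureCounts, Subread, DESeq2 1.30.0 and build mm10; versions of the others, strand use, annotation and the handling of reads with several matches are not given in the sources used here. Broken lines (11 per table) held no count for 4 genes, none of them a complement gene.

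Genes were kept by filterByExpr (minimum count 10, minimum total 15), scaled by TMM, and tested with edgeR 4.0.16 (R 4.3.3), quasi-likelihood F-test, two-sided, with group as the only term; the Benjamini-Hochberg adjustment ran over 21439 genes, with a threshold of 0.05. The procedure was tested on simulated data. Standard errors are the log2 fold change divided by the square root of F. Log2 CPM used a prior count of 2. Lengths are GENCODE M21 exon unions. Coordinates are RefSeq's for GRCm38.p6, counted from 1. Similar transcripts were sought with BLAST 2.17.0 (95% identity or more, 100 bases or more).

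Named were all 9 members, Ociad1, other complement genes with a mean of at least 5 CPM or an unadjusted p under 0.05, and the 3 genes nearest in profile to C1q, C3 and C4b; C1ra, C1s1, C1s2, Cr2, C8g, Cd55, genes near 0 and single marker genes were named after their values were seen. Left out of the list was 1 further complement gene, which is not reported here. The members, lists, motifs and alternatives were chosen with earlier results of these data known. Alternatives were DESeq2 1.42.0, its size factors in edgeR, no filter, a filter at a mean of 1 CPM, the replicate block, scaling to the homeostatic list, a neuron and astrocyte covariate, and leaving out each library.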

Additional observations from a re-analysis of the deposited data

How the results depend on the processing

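By edgeR, 0 genes passed the adjusted threshold, and this stayed 0 with DESeq2 size factors, either other filter, scaling to the homeostatic list and the covariate (1072 genes had an unadjusted p under 0.05). DESeq2 called 91, and the fits without 1 library called 0 to 524 (524 without AD replicate 2, 48 without AD replicate 1); the cause was not tested. With a library left out, the remaining library of its group is assumed to vary like the other group. The labels do not say what a replicate number shares; the deviations of same-numbered libraries correlated at 0.68 across genes. With the replicate number as a block, 4333 genes were called (20.2%), among them C4b (−1.66) and C3ar1 (−1.24), 2 of 9 members (22.2%), with adjusted p of 0.00229 and 0.0379 in that edgeR fit against up to 1.0 over their other alternatives. Of the 31 further complement genes the block called 11 (35.5%): Itgax, Masp1, Colec12, Clu, Csmd1, Csmd2, Csmd3, Susd4, Sez6, Sez6l and Sez6l2. Without AD replicate 1, 2 were called (Itgax and Fcnb), and without AD replicate 2, 4 (Itgax, Csmd1, Susd4 and Sez6). With the block, C1qb was −0.19 and C1qc −0.17, a turn in direction.

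The median of the members ran from −1.24 (without AD/KO replicate 1) to −0.13 over the fits without 1 library, and the homeostatic scaling gave 0.11. The members lower in both AD/KO libraries numbered 3 to 8 over the fits without 1 library, 8 of them without AD/KO replicate 1, where 43.4% of all genes were lower. The further complement genes lower in both numbered 6, and 7 to 13 without 1 library (11 without either AD replicate, 13 without AD/KO replicate 1), 9 with no filter and 4 with scaling to the homeostatic list. C3, C4b, C3ar1 and C5ar1 kept their sign under all 11 alternatives. Directions turned for C1qa to 0.12 with scaling to the homeostatic list and 0.36 with the covariate, for Vsir to 0.11 and 0.56, and for Cfp to −0.61 with the covariate. Without 1 library, C1qa ran from −1.19 to 0.36, C1qb from −0.97 to 0.63, C1qc from −0.95 to 0.66, Cfp from −0.22 to 1.18 and Vsir from −1.27 to 0.35. Without AD replicate 2, C1qb was −0.03 and C1qc −0.01; without AD replicate 1, Cfp was −0.12 and Vsir 0.08. In all, 109 of 137 alternative values kept the direction and the side of the threshold reported or, for the median and the counts, stayed within 0.54 (the SD between replicates) or 1.5 times; the turned median of 0.11 is among them. Each member had over 100 counts in every library.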
